A study of Mus musculus with 6 samples.

Results

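The genes examined here encode the enzymes and transporters that carry glucose through glycolysis, the pentose phosphate pathway and the tricarboxylic acid (TCA) cycle, with the kinases that steer pyruvate and the itaconate enzyme Acod1. They were taken as a list of 44 gene symbols, chosen with earlier results of these data known. Every probe set that the array annotation pairs with exactly 1 of those symbols was used. Such probe sets existed for 40 of the 44 genes, 91 in all. The array held 18194 genes with a single-symbol probe set and 45101 probe sets. Gpi1, G6pdx, Pfkfb1 and Eno1 had none and were not analysed here. The cells were resident macrophages of the mouse peritoneal cavity, recovered by lavage at 7 weeks of age and sorted by flow cytometry for high CD11b with little or no MHC class II. The 3 Gata6-KO samples came from mice with a conditional (floxed) deletion of Gata6, the gene of a zinc finger transcription factor that marks these macrophages, and the 3 Gata6-WT samples from wild type mice, described as sex-matched. Each sample was a pool of 2 to 3 mice measured on 1 array with no treatment named, and the Cre line, the deleted exons and any further alleles are unnamed in the labels.

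Glycolysis splits glucose into pyruvate in the cytosol, and lactate dehydrogenase interconverts pyruvate and lactate. The pentose phosphate pathway branches off at glucose 6-phosphate to make NADPH and ribose 5-phosphate, and the TCA cycle oxidises acetyl-CoA in mitochondria. Macrophages are known for shifting glucose use between these routes when they are activated, and inflammatory macrophages divert the TCA intermediate cis-aconitate to itaconate through ACOD1.

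The check of the deleted gene and of the samples came first. At its brightest probe set Gata6 had signals of 4452, 3040.2 and 2998 in Gata6-KO replicates 1, 2 and 3 and 6433, 5405 and 7279 in Gata6-WT replicates 1, 2 and 3: every Gata6-KO array lay below every Gata6-WT array but kept signal (limma adjusted p = 0.011). A second probe set fell further (log2 -1.15, adjusted p = 0.0043), and the third had log2 -0.01 (adjusted p = 0.98); which of them lie in the deleted part is not known here. The replicates numbered 1 of both genotypes carried male-type expression (high Eif2s3y, low Xist) and the other 4 arrays female-type expression, so values for replicates 2 and 3 and for replicates 1 are given separately below. Of the 8 macrophage markers 3 fell and 1 rose. Csf1r was at 46856 or more and Lyz2 at 60996 or more on every array, and neither was called. The Fc receptor gene Fcgr1 fell the most, with 148, 96.2 and 199.9 in Gata6-KO against 1104, 1383 and 842 in Gata6-WT (log2 -2.80, adjusted p = 1.9e-04). Adgre1, which encodes F4/80, fell with log2 -1.86 (adjusted p = 2.7e-04) and Cd68 with log2 -0.41 (adjusted p = 0.031), while Mertk rose with log2 0.43 (adjusted p = 0.031). The summed signal of the 6 neutrophil markers was 516 to 826 in Gata6-KO and 974 to 1642 in Gata6-WT, that of 6 mast cell markers 326 to 494 in Gata6-KO and 509.6 to 609.7 in Gata6-WT, that of 5 MHC class II genes 2876 to 5345 in Gata6-KO and 1707 to 2798 in Gata6-WT, that of 5 B cell markers 282 to 441 in Gata6-KO and 348 to 620.5 in Gata6-WT, that of 5 T cell markers 153 to 251 in Gata6-KO and 217 to 341 in Gata6-WT and that of 3 NK cell markers 166 to 252 in Gata6-KO and 81.9 to 178 in Gata6-WT. Of the 5 MHC class II genes 2 rose, and the dendritic cell, eosinophil, mesothelial and erythroid lists held 0 calls among 4 tested genes by limma. S100a8 was the 1 called gene of the neutrophil list, in which it fell, while S100a9 had at most 26.8 on any array. The ratio of the 3' to the 5' Gapdh control probe set, a rough index of RNA integrity, was 0.706, 0.697 and 0.722 in Gata6-KO and 0.742, 0.760 and 0.778 in Gata6-WT, so the genotypes did not overlap. The part of these differences in the results below was not tested.

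The changes fell on single steps in glucose uptake, glycolysis, lactate and pentose handling and on cytosolic relatives of TCA cycle enzymes. Ldhb, Aldoc, Slc2a1, Hk2 and Taldo1 were lower in Gata6-KO, and Pfkfb3, Aco1 and Idh1 were higher; Aldoc was dim and passed the filter described next only through its Gata6-WT arrays, and it is not called with no filter. A value is the deposited probe set signal, a linear intensity, and a gene is represented by its probe set with the highest mean among those above the 40th percentile of all probe sets (a signal of 47.5); differences are on the log2(signal + 16) scale, Gata6-KO minus Gata6-WT. Of the 40 genes, 38 passed that filter, and 3 were called higher and 5 lower at an adjusted p under 0.05 in limma's test over 27022 probe sets. Over all 12511 genes tested 13.1% were called, 5.61% higher and 7.46% lower, against 8 of 38 here, or 7 of 37 without Aldoc. The list's median difference was log2 -0.02 (all genes -0.04), and its median size of difference was log2 0.26, beside 0.26 over all genes. Exactly 19 of the 38 differences lay above 0 and 19 below. The 2 genotypes did not overlap in 21 of the 38 genes, 10 with Gata6-KO above and 11 with it below, where 34.4% of all genes did not overlap; 13 of these 21 were not called. A difference of at least 2-fold was seen in 5 of the 38, the called Ldhb, Aldoc, Slc2a1 and Pfkfb3 and the uncalled Pdk4, beside 7.04% of all genes; without Aldoc it was 4 of 37. Calls were more frequent among genes with high signal. In the top 25% of genes by mean level, 698 of 3128 genes (22.3%) were called, and a lower share of the listed genes there, 3 of 25. The listed genes had a median level of log2 11.41, beside 8.97 over all genes. The shares of all genes given above, for calls, overlap and 2-fold differences, are therefore not matched for level.

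**Figure D1:**
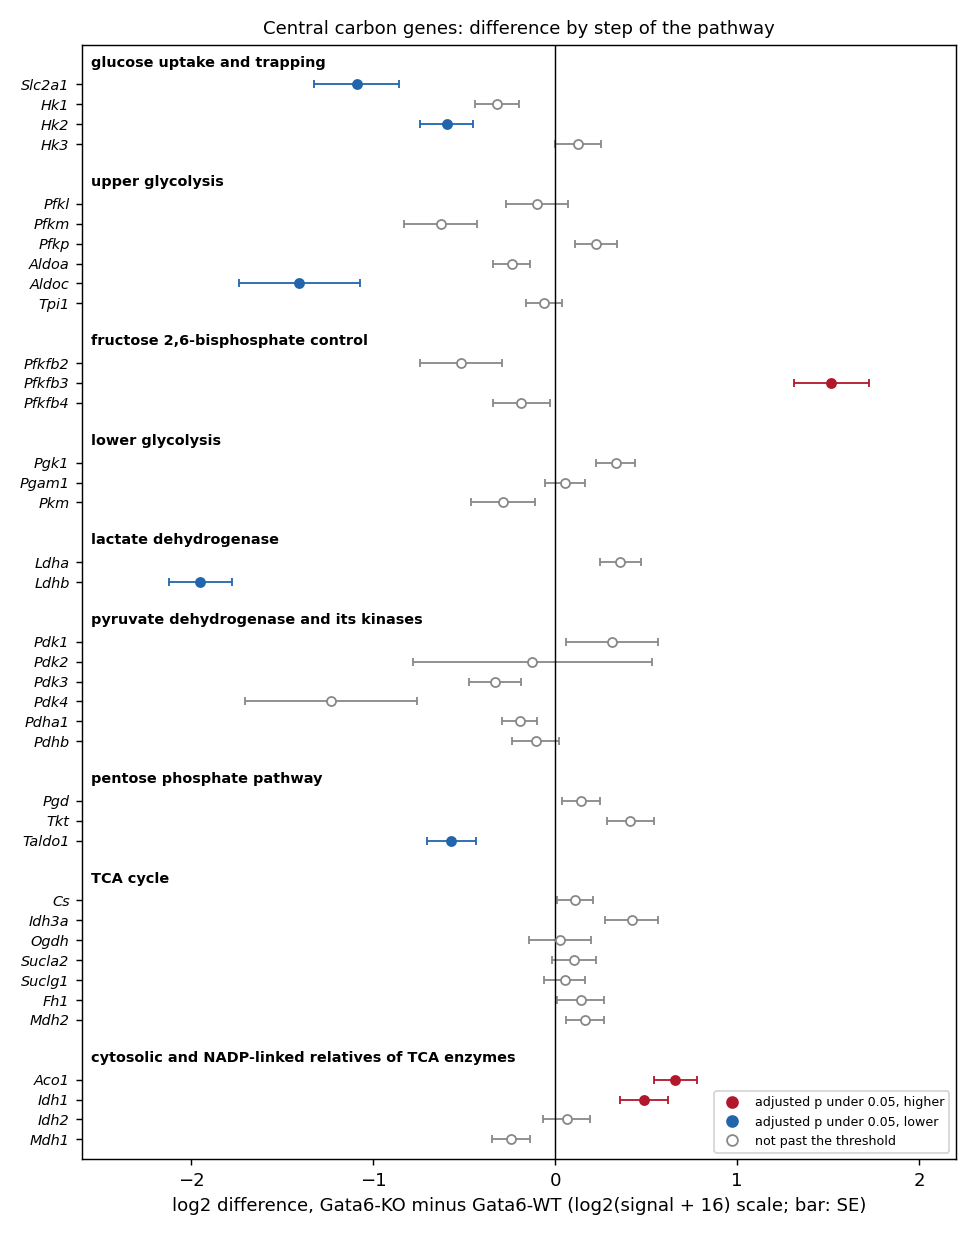
Difference between Gata6-KO and Gata6-WT for the 38 tested genes, ordered by step of the pathway; the horizontal axis is the log2 difference on the log2(signal + 16) scale, points are estimates and bars their SE (3 arrays a genotype). The 5 filled blue points (Slc2a1, Hk2, Aldoc, Ldhb, Taldo1) are lower and the 3 filled red points (Pfkfb3, Aco1, Idh1) higher, while the 7 TCA cycle genes lie between 0.03 and 0.42 with open symbols.

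The promoters of the 6 called genes with the largest changes are shown because the deleted gene encodes a GATA factor and because glycolysis genes are textbook targets of hypoxia-inducible factors. The sequences are the RefSeq windows of assembly GRCm38.p6, trimmed to the 250 bases before the start site, with every window that the table gives for these genes. Capitals mark every match, on either strand, to the hypoxia response core, spelled ACGTG in its common form and GCGTG in its variant form. A match on the opposite strand reads CACGT for the common form, and for the variant form it reads CACGC. The palindrome CACGTG counts on both strands. The GATA motifs, searched in the same way, were AGATAA and, with another first base, TGATAA.
Ldhb (GRCm38.p6 chr6:142507958-142508207, minus strand): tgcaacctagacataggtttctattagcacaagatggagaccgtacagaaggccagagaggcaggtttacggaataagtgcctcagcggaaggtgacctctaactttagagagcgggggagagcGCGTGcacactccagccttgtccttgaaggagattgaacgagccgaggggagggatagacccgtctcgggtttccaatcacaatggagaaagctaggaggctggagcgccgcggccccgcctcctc
Pfkfb3 (window 1, GRCm38.p6 chr2:11553930-11554179, minus strand): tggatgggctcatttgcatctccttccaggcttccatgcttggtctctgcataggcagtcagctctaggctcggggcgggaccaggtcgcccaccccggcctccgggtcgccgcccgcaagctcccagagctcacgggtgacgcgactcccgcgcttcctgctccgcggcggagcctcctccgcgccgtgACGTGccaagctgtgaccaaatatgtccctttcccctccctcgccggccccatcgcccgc
Pfkfb3 (window 2, GRCm38.p6 chr2:11502091-11502340, minus strand): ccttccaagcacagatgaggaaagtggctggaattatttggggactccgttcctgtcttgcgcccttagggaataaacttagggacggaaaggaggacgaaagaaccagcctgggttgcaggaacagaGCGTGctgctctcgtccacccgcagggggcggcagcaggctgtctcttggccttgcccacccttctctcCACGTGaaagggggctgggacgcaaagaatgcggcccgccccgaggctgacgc
Aldoc (window 1, GRCm38.p6 chr11:78322823-78323072, plus strand): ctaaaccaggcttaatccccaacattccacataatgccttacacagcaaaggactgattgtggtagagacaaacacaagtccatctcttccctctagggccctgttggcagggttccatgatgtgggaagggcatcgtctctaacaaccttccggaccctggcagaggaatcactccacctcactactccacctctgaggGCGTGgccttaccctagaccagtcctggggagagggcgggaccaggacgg
Aldoc (window 2, GRCm38.p6 chr11:78323948-78324197, plus strand): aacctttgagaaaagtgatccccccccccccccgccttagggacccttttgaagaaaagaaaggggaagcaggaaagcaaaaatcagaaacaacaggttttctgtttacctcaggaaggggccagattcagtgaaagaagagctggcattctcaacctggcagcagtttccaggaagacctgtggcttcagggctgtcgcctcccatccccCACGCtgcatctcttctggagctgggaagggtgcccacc
Slc2a1 (GRCm38.p6 chr4:119108495-119108744, plus strand): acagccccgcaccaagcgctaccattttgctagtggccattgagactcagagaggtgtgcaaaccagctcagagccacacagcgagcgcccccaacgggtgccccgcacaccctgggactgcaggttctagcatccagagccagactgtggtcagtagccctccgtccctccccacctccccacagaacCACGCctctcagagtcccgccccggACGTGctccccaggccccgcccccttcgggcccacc
Aco1 (GRCm38.p6 chr4:40143015-40143264, plus strand): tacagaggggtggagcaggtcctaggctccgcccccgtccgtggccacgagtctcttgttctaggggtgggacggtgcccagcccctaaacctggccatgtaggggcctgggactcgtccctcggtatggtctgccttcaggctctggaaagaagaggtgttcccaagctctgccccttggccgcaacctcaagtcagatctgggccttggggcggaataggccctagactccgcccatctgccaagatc
Hk2 (GRCm38.p6 chr6:82774455-82774704, minus strand): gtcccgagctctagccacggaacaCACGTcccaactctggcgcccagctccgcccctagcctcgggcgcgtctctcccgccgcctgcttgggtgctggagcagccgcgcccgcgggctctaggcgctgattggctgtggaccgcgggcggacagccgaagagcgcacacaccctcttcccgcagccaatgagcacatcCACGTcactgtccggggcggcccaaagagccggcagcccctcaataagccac
A hypoxia response core stood in 7 of the 8 windows, in 5 of the 6 genes, and in no window of Aco1. In Slc2a1 the ACGTG began 36 bases before the start site and in Hk2 a CACGT began 52 bases before it. Such a core was common among all of the listed genes, in 37 of 43 (86.0%) of those in the promoter table, counting any of a gene's windows. It stood in 7 of 8 (87.5%) of the called genes, in 26 of 29 (89.7%) of the tested genes that were not called, and in 11226 of 27025 (41.5%) of all genes. The windows were not matched for base content. The 8 called genes include Aldoc, which passed the filter only through its Gata6-WT arrays. Counted by window, the core was in 52 of 69 (75.4%) for the listed genes and in 12679 of 32851 (38.6%) for all genes. A GATA motif was found in 9 of 43 (20.9%) of the listed genes, in 0 of the 8 called ones, in 8 of 29 (27.6%) of the tested genes that were not called, and in 5092 of 27025 (18.8%) of all genes. Pfkm had 3 GATA motifs in its window 1 and further ones in its windows 2 and 3. A match is a description of the letters and not a bound site, and the lack of one says nothing of the factor.

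At the entry of glucose, the transporter and 1 hexokinase were lower. Slc2a1, the glucose transporter GLUT1, had signals of 303, 203 and 171 in Gata6-KO replicates 1, 2 and 3 and 595, 465 and 413 in Gata6-WT replicates 1, 2 and 3. The highest Gata6-KO array was below the lowest Gata6-WT array, and the fall was 2.13-fold, log2 -1.09 ± 0.23 SE, limma adjusted p = 0.016; in bulk RNA of sorted pools, fewer cells of a type and less RNA per cell cannot be told apart. Its other 2 probe sets also fell, with log2 differences of -1.43 and -0.94. Hk2, the inducible hexokinase that traps glucose as glucose 6-phosphate, had 994, 762 and 829.5 in Gata6-KO replicates 1, 2 and 3 and 1377, 1406 and 1143 in Gata6-WT replicates 1, 2 and 3. The groups did not overlap and the fall was 1.51-fold, log2 -0.60 ± 0.15 SE, limma adjusted p = 0.029. Hk1, the housekeeping hexokinase, also had every Gata6-KO array below Gata6-WT, at 1999.5, 2046 and 2095 in Gata6-KO against 2201, 2765 and 2741 in Gata6-WT, but did not pass (log2 -0.32 ± 0.12 SE, adjusted p = 0.14), and its dim second probe set had log2 0.09 (adjusted p = 0.89). Hk3, a hexokinase of myeloid cells, had log2 0.12 ± 0.13 SE, adjusted p = 0.60, while its second probe set had log2 -0.38 (adjusted p = 0.12), so the 2 differ in sign. The difference in Slc2a1 was -1.17 in replicates 2 and 3 and -0.94 in replicates 1, and that in Hk2 -0.66 in replicates 2 and 3 and -0.46 in replicates 1. Neither call held in every fit with 1 array fewer: without Gata6-KO replicate 2 or 3 or Gata6-WT replicate 1 the adjusted p of Slc2a1 was 0.053 to 0.056, and without any of these 3 or Gata6-WT replicate 2 that of Hk2 was 0.083 to 0.11.

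In the upper part of glycolysis, where hexose phosphate is phosphorylated again and cleaved, the 1 gene called was Aldoc, at low signal. Aldoc, the brain-type aldolase, had 29.6, 61.5 and 47.5 in Gata6-KO replicates 1, 2 and 3 and 109, 137 and 202 in Gata6-WT replicates 1, 2 and 3. Its Gata6-KO mean lay below the filter, which it passed only through the Gata6-WT arrays, so no fold is given. The fitted difference was log2 -1.41 ± 0.33 SE (limma adjusted p = 0.025), and its adjusted p was 0.062 with no filter; its second probe set was too dim to be tested. It also missed the threshold without Gata6-KO replicate 1 or 3 or Gata6-WT replicate 2 or 3 (adjusted p 0.061 to 0.095). Aldoa, the main aldolase of most tissues, had 9699, 8676 and 9760.1 in Gata6-KO against 10926, 10410.5 and 11885 in Gata6-WT, every Gata6-KO array lower, with log2 -0.24 at the brightest probe set (adjusted p = 0.19). Of its 5 tested probe sets 1 fell (log2 -0.52, adjusted p = 0.0091) and the others ran from -0.31 to -0.02. The 3 phosphofructokinase genes, which encode subunits of the enzyme at the committed step, did not pass at their probe sets with the highest mean. Pfkm had 377, 331 and 233 in Gata6-KO against 534, 416 and 513 in Gata6-WT (log2 -0.63 ± 0.20 SE, adjusted p = 0.083), below wild type on every array. Pfkp, the platelet-type subunit, had 2011, 1999.5 and 2021 in Gata6-KO against 1561, 1902 and 1713 in Gata6-WT, above wild type on every array (log2 0.22 ± 0.11 SE, adjusted p = 0.26), and a dimmer probe set of it rose (log2 1.02, adjusted p = 0.019); its remaining probe set had log2 0.08. Pfkl, the liver-type subunit, overlapped between genotypes (log2 -0.10 ± 0.17 SE, adjusted p = 0.77), and so did Tpi1, the triose phosphate isomerase (log2 -0.06 ± 0.10 SE, adjusted p = 0.76). The other Pfkl probe sets had log2 0.08 and -0.08.

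The largest rise among the 38 genes was in Pfkfb3, which encodes a bifunctional enzyme that makes fructose 2,6-bisphosphate, the strongest activator of phosphofructokinase. Its signals were 1366, 2049.8 and 1740.2 in Gata6-KO replicates 1, 2 and 3 and 452, 755 and 576 in Gata6-WT replicates 1, 2 and 3. Every Gata6-KO array lay well above every Gata6-WT array, and the rise was 2.86-fold, log2 1.52 ± 0.21 SE, limma adjusted p = 0.0016. The difference was 1.50 in replicates 2 and 3 and 1.56 in replicates 1, ran from 1.34 to 1.70 when any 1 array was left out, and passed in all 18 alternative fits; a second, dim probe set had log2 0.12 (adjusted p = 0.90). The related genes did not pass. Pfkfb2, the heart isoform, had 269, 177 and 155 in Gata6-KO against 281, 259 and 323 in Gata6-WT (log2 -0.52 ± 0.23 SE, adjusted p = 0.19), and its groups overlapped. The other tested Pfkfb2 probe sets, both dim, had log2 0.28 and -0.07. Pfkfb4, the testis isoform, had log2 -0.19 ± 0.16 SE, adjusted p = 0.51.

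The later steps of glycolysis, from 1,3-bisphosphoglycerate to pyruvate, held no called gene at the brightest probe sets. Pgk1, phosphoglycerate kinase, was closest. It had 5171, 5069.9 and 5050.5 in Gata6-KO against 4524, 3911 and 3733 in Gata6-WT, with every Gata6-KO array above Gata6-WT (log2 0.33 ± 0.11 SE, adjusted p = 0.083), and 1 of its 3 probe sets rose (log2 0.48, adjusted p = 0.034). With its probe sets averaged Pgk1 was called (log2 0.38, adjusted p = 0.036). Pgam1, phosphoglycerate mutase, had log2 0.05 ± 0.11 SE, adjusted p = 0.82. Pkm, the pyruvate kinase of macrophages, had 1473, 1623 and 1620.1 in Gata6-KO against 2529.8, 1872 and 1493 in Gata6-WT, with Gata6-WT replicate 1 the highest and overlapping groups (log2 -0.29 ± 0.18 SE, adjusted p = 0.36). Eno2, the neuronal enolase, was too dim to be tested, at 3.65 ± 1.67 in Gata6-KO and 8.77 ± 6.27 in Gata6-WT (SD, n = 3 each; exact two-sided permutation p = 0.20, where 0.1 is the smallest possible).

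Ldhb, a lactate dehydrogenase gene, fell the most of the 38 genes. Ldhb encodes the heart-type subunit, known for favouring lactate oxidation, and Ldha the muscle-type subunit, known for favouring lactate formation. Ldhb had 272, 395 and 285 in Gata6-KO replicates 1, 2 and 3 and 1132, 1221 and 1435 in Gata6-WT replicates 1, 2 and 3. The highest Gata6-KO array stood far below the lowest Gata6-WT array, and the fall was 3.87-fold, log2 -1.95 ± 0.17 SE, limma adjusted p = 1.5e-04. All 4 Ldhb probe sets fell, the others with log2 differences of -2.80, -3.26 and -3.66; the last passed the filter only through the Gata6-WT arrays. The difference was -1.93 in replicates 2 and 3 and -1.99 in replicates 1, and it passed in all 18 alternative fits. Ldha had 12449.9, 15068 and 14057 in Gata6-KO replicates 1, 2 and 3 and 9778, 11166 and 11468 in Gata6-WT replicates 1, 2 and 3. Every Gata6-KO array was above every Gata6-WT array, but the difference did not pass (log2 0.36 ± 0.11 SE, adjusted p = 0.079). In the fit with a term for the male-type replicates 1 it did pass (adjusted p = 0.046).

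**Figure D2:**
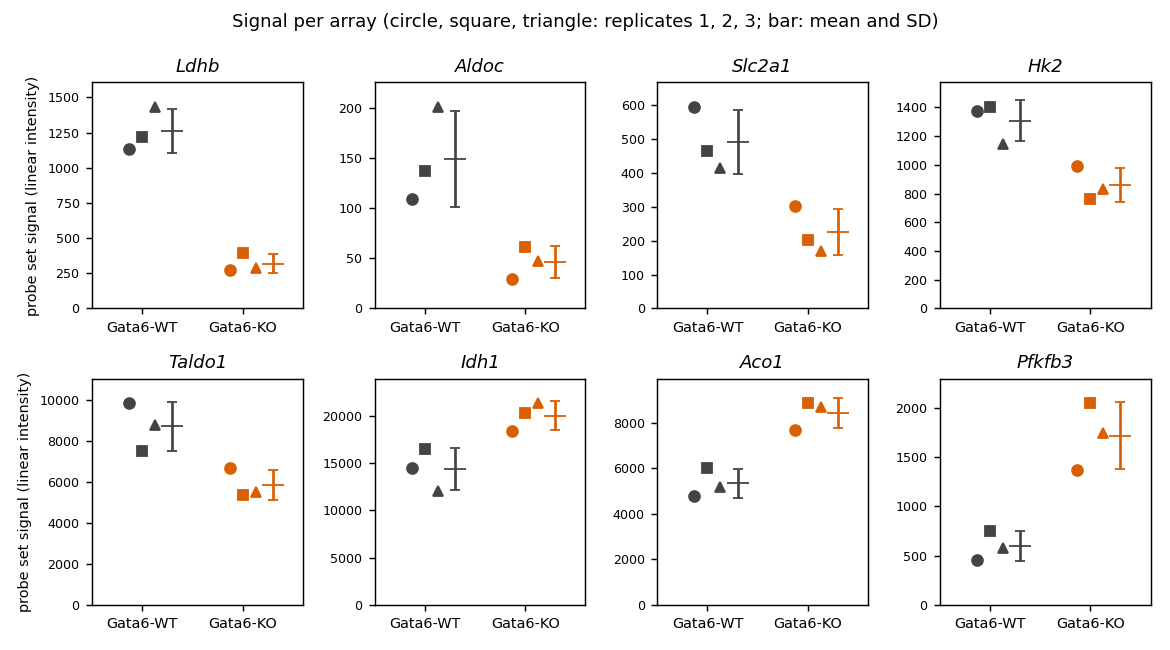
Signals of the 8 called genes on each array; each panel has its own vertical axis, a linear intensity starting at 0, with circles, squares and triangles for replicates 1, 2 and 3 and a bar for the mean ± SD (n = 3). In all 8 panels the 3 Gata6-KO arrays lie apart from the 3 Gata6-WT arrays, with the smallest relative gaps in Idh1, Taldo1 and Hk2.

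At the entry of pyruvate into mitochondria none of 6 tested genes was called by limma. Pdha1 and Pdhb encode the 2 subunits of pyruvate dehydrogenase, which turns pyruvate into acetyl-CoA. Pdha1 had 3758, 3986 and 3970.0 in Gata6-KO against 4591, 4389 and 4429 in Gata6-WT, slightly lower on every Gata6-KO array (log2 -0.19 ± 0.10 SE, adjusted p = 0.24), and Pdhb overlapped (log2 -0.11 ± 0.13 SE, adjusted p = 0.67). The pyruvate dehydrogenase kinases switch the complex off. Pdk4, the kinase induced by fasting and fatty acids, had 294, 211 and 998 in Gata6-KO replicates 1, 2 and 3 and 951, 714 and 1296 in Gata6-WT replicates 1, 2 and 3. Gata6-KO replicates 1 and 2 were below all Gata6-WT arrays while replicate 3 was inside their range, so the groups overlapped (log2 -1.23 ± 0.47 SE, adjusted p = 0.14). Without Gata6-KO replicate 3 the difference was -1.88 (adjusted p = 0.0042). Pdk1 had 4461, 3609 and 2522 in Gata6-KO against 3616, 3061 and 1908 in Gata6-WT; the arrays spread widely within both genotypes and overlapped (log2 0.31 ± 0.25 SE, adjusted p = 0.50). Pdk3 was below wild type on every Gata6-KO array (log2 -0.33 ± 0.14 SE, adjusted p = 0.19), and Pdk2 was near the filter with a wide spread (log2 -0.13 ± 0.66 SE, adjusted p = 0.93).

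In the non-oxidative pentose phosphate pathway the gene of 1 of the 2 sugar transfer enzymes fell. Taldo1, transaldolase, had 6659, 5358 and 5522 in Gata6-KO replicates 1, 2 and 3 and 9847, 7479.9 and 8783 in Gata6-WT replicates 1, 2 and 3. The groups did not overlap and the fall was 1.48-fold, log2 -0.57 ± 0.13 SE, limma adjusted p = 0.024. Tkt, transketolase, had 28539, 26919 and 23860.0 in Gata6-KO replicates 1, 2 and 3 and 22775, 20072 and 17017 in Gata6-WT replicates 1, 2 and 3. Every Gata6-KO array was above every Gata6-WT array, but the difference did not pass (log2 0.41 ± 0.13 SE, adjusted p = 0.076), and its other 2 probe sets had log2 0.15 and 0.32 with overlapping groups. Without Gata6-WT replicate 1 it was called (log2 0.51, adjusted p = 0.030). Pgd, the NADPH-forming phosphogluconate dehydrogenase of the oxidative branch, had log2 0.14 ± 0.10 SE, adjusted p = 0.44, and its 4 probe sets ran from -0.08 to 0.15. The difference in Taldo1 was -0.57 in replicates 2 and 3 and -0.56 in replicates 1, and its adjusted p was 0.059 to 0.097 without Gata6-KO replicate 2 or 3 or Gata6-WT replicate 1 or 3.

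None of the 7 listed genes of the mitochondrial TCA cycle was called by limma, while Dlst and Sdha, from the neighbouring list described further on, were. All 7 lay above 0 at their brightest probe set, between log2 0.03 (Ogdh) and 0.42 (Idh3a), and 0 of 7 passed limma's test. With replicates 2 and 3 only, 6 of 7 lay above 0. The same 6 of 7 was found when Gata6-KO replicate 1 or 3 or Gata6-WT replicate 1 or 2 was left out. Idh3a, the catalytic subunit of the NAD-linked isocitrate dehydrogenase, had 1880.1, 1826 and 2587 in Gata6-KO against 1525, 1593 and 1511 in Gata6-WT. Its Gata6-KO arrays were all higher, replicate 3 the most (log2 0.42 ± 0.15 SE, adjusted p = 0.10), while its 3 other probe sets ran from -0.05 to 0.22. Mdh2, the mitochondrial malate dehydrogenase, had 11438, 11206 and 11127 in Gata6-KO against 10191, 10996 and 9077 in Gata6-WT, also without overlap (log2 0.16 ± 0.10 SE, adjusted p = 0.38). Cs, citrate synthase, had 4335 ± 196 in Gata6-KO and 4019 ± 130.3 in Gata6-WT (SD, n = 3 each; log2 0.11 ± 0.10 SE, adjusted p = 0.55). Fh1, fumarate hydratase, had log2 0.14 ± 0.13 SE, the succinyl-CoA synthetase subunit genes Sucla2 and Suclg1 log2 0.10 ± 0.12 SE and log2 0.05 ± 0.11 SE, and Ogdh, of the oxoglutarate dehydrogenase complex, log2 0.03 ± 0.17 SE; the genotypes overlapped in each of these 4.

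Of 4 genes for relatives of the cycle's enzymes, the cytosolic Aco1 and Idh1 rose and Mdh1 and the mitochondrial Idh2 did not pass. Aco1, the cytosolic aconitase that doubles as iron regulatory protein 1, had 7679, 8868 and 8710.1 in Gata6-KO replicates 1, 2 and 3 and 4790.5, 6029 and 5182 in Gata6-WT replicates 1, 2 and 3. The groups were well apart and the rise was 1.58-fold, log2 0.66 ± 0.12 SE, limma adjusted p = 0.0070, with 0.65 in replicates 2 and 3 and 0.68 in replicates 1; its second tested probe set had log2 0.34 (adjusted p = 0.32). Idh1, the cytosolic NADPH-forming isocitrate dehydrogenase, had 18363, 20286 and 21336 in Gata6-KO replicates 1, 2 and 3 and 14428, 16522 and 12082 in Gata6-WT replicates 1, 2 and 3. The rise was 1.40-fold, log2 0.49 ± 0.13 SE, limma adjusted p = 0.042, and its second probe set rose as well (log2 0.41, adjusted p = 0.025). At the brightest probe set the Idh1 call held in 7 of 18 alternative fits, and leaving out any 1 array but Gata6-WT replicate 2 ended it (adjusted p 0.066 to 0.13). Idh2, the mitochondrial NADP-linked enzyme, overlapped between genotypes (log2 0.06 ± 0.13 SE, adjusted p = 0.81). The other Idh2 probe set had log2 -0.20. Mdh1, the cytosolic malate dehydrogenase, was lower on every Gata6-KO array, at 14432, 14179.7 and 12384 in Gata6-KO against 15098, 16638 and 16725 in Gata6-WT. It did not pass at its brightest probe set (log2 -0.24 ± 0.10 SE, adjusted p = 0.19), but 2 of its 4 tested probe sets fell, with log2 -0.38 (adjusted p = 0.045) and -0.53 (adjusted p = 0.015).

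Acod1, which makes itaconate from cis-aconitate, had low signals. Its 1 probe set had 4.65, 19.3 and 61.7 in Gata6-KO replicates 1, 2 and 3 and 27.9, 9.37 and 9.63 in Gata6-WT replicates 1, 2 and 3. Only Gata6-KO replicate 3 exceeded the filter signal of 47.5, and the gene was not tested in the fit (exact two-sided permutation p = 0.70).

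Probe sets of the same gene mostly pointed the same way. Of 25 genes with several tested probe sets, 18 had all of them on 1 side of 0 and 7 had mixed signs, and 0 genes had calls in opposite directions. By probe set, 6 of 83 tested were higher and 13 lower, where 5.12% and 5.67% of all probe sets were. The 13 include the tested Aldoc probe set and an Ldhb probe set that passed the filter only through the Gata6-WT arrays. They also include all 4 Ldhb and all 3 Slc2a1 probe sets, and probe sets of the same gene are not separate units. Slc2a1, Ldhb and Idh1 were called at every tested probe set. Aldoa, Pgk1, Pfkp and Mdh1 were called only at a probe set other than the brightest. Probe sets whose names end in _x_at or _s_at can share probe sequence with other genes or copies, which applies to the called probe sets of Aco1, Idh1, Aldoa and Pgk1, to 1 of the 2 called for Mdh1 and to 2 of the 4 of Ldhb. The same limit applies to the uncalled brightest probe sets of Hk3, Tpi1, Aldoa, Pgk1, Pgd, Tkt and Mdh1.

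**Figure D3:**
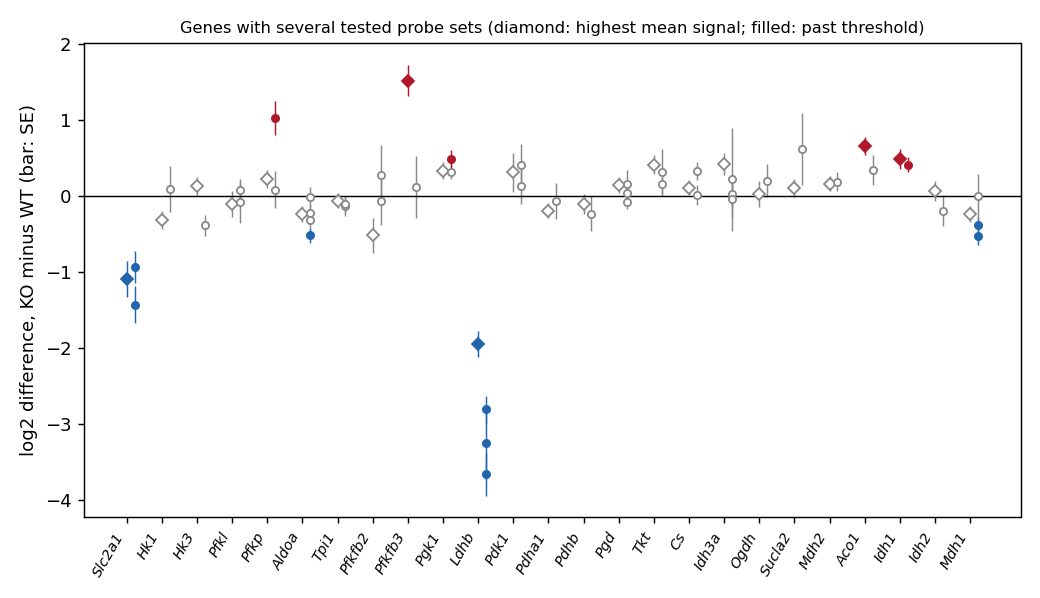
Log2 difference (Gata6-KO minus Gata6-WT, bar: SE) at every tested probe set of the 25 genes with several; diamonds are the probe sets with the highest mean, circles the others, and filled symbols passed the threshold. All 4 Ldhb and all 3 Slc2a1 probe sets lie below 0, whereas Pfkfb3 has 1 called probe set and 1 that did not pass, at 1.52 and 0.12.

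Neighbouring genes of glucose metabolism, on lists of 89 that share no gene with the 44, held 73 tested genes, of which 7 rose and 5 fell. That is 16.4% called, where 13.1% of all genes were. The lists were chosen with earlier results of these data known, so the called shares of these lists are descriptions only. The fall was deepest in Egln3 and Khk. Egln3, the oxygen-sensing prolyl hydroxylase 3 that marks hypoxia-inducible factors for destruction and is itself a hypoxia target, had 65.3, 166 and 39.1 in Gata6-KO against 1106, 1191 and 929 in Gata6-WT (log2 -3.54 ± 0.37 SE, adjusted p = 3.6e-04). Epas1, which encodes the factor HIF-2α, had 736, 1029.9 and 886 in Gata6-KO against 2259, 2576 and 2204 in Gata6-WT (log2 -1.40 ± 0.14 SE, adjusted p = 3.4e-04), and both were called in all 18 alternative fits. Hif1a, which encodes HIF-1α, overlapped between the genotypes (log2 0.14 ± 0.13 SE, adjusted p = 0.56). Of 19 tested regulators these 2 fell and 0 rose; Myc had 971, 437 and 1192 in Gata6-KO against 1524, 1622 and 1992 in Gata6-WT and just missed the threshold (log2 -1.08 ± 0.31 SE, adjusted p = 0.056). Among 9 genes of glycogen, fructose and galactose use, Khk, the ketohexokinase that starts fructose breakdown, fell with 581, 816 and 514 in Gata6-KO against 4530.0, 3768 and 5040.3 in Gata6-WT (log2 -2.79 ± 0.18 SE, adjusted p = 2.9e-05). Pgm2, a phosphopentomutase and phosphoglucomutase, rose with 1025, 1012 and 1272 in Gata6-KO against 397, 428 and 415 in Gata6-WT (log2 1.37 ± 0.14 SE, adjusted p = 3.2e-04). All 3 Gata6-KO arrays were apart from Gata6-WT in each of these genes except Hif1a.

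Other genes of the TCA cycle and its exits held 4 that rose and 0 that fell of 14, beside 5.61% of all genes that rose and 7.46% that fell; the same shares apply to the smaller lists that follow. Me2, the mitochondrial malic enzyme that turns malate into pyruvate, had 1327, 1365 and 1526 in Gata6-KO against 528, 405 and 365 in Gata6-WT (log2 1.68 ± 0.16 SE, adjusted p = 2.0e-04), and its second called probe set rose by log2 1.32. Dlst, the succinyltransferase of the oxoglutarate dehydrogenase complex, had 3024, 3166 and 3706 in Gata6-KO against 2008, 2119 and 1594 in Gata6-WT (log2 0.79 ± 0.14 SE, adjusted p = 0.0064), but with the mean of its probe sets the adjusted p was 0.23. Sdha and Sdhaf2, a subunit and an assembly factor of succinate dehydrogenase, rose by log2 0.39 and 0.54 (adjusted p = 0.046 and 0.020); the Sdha call ended with any 1 array left out and that of Sdhaf2 without Gata6-KO replicate 1 or 3 or Gata6-WT replicate 2. At pyruvate entry Dld, the dihydrolipoamide dehydrogenase shared by several complexes, rose from wild type 1140.3 ± 163 to 1765 ± 219 (SD, n = 3 each; log2 0.63 ± 0.15 SE, adjusted p = 0.025), and it was the 1 called of 8; without Gata6-KO replicate 1 or 3 or Gata6-WT replicate 2 or 3 it was not called. In the pentose phosphate list 1 of 8 rose and 2 fell. The epimerase gene Rpe rose (log2 0.51 ± 0.12 SE, adjusted p = 0.027), while the isomerase gene Rpia and Prps2, which makes phosphoribosyl pyrophosphate, fell (log2 -0.49 ± 0.11 SE, adjusted p = 0.019, and log2 -0.70 ± 0.13 SE, adjusted p = 0.0081). The other 2 probe sets of Prps2 had log2 -0.18 and 0.04, and with its probe sets averaged it was not called (log2 -0.28, adjusted p = 0.20). At the brightest probe sets, leaving out any 1 array but Gata6-WT replicate 3 ended the Rpe call. Leaving out Gata6-KO replicate 2 or 3 or Gata6-WT replicate 2 ended that of Rpia. A second Rpe probe set rose as well (log2 0.85, limma adjusted p = 0.0048). Rpe and Rpia encode the enzymes that interconvert the pentose phosphates feeding Tkt. Of 15 other tested glycolysis genes 0 passed limma's test; those with the smallest p were Tigar (log2 0.58 ± 0.19 SE, adjusted p = 0.094) and Slc2a3, the transporter GLUT3 (log2 -1.08 ± 0.45 SE, adjusted p = 0.17).

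**Figure D4:**
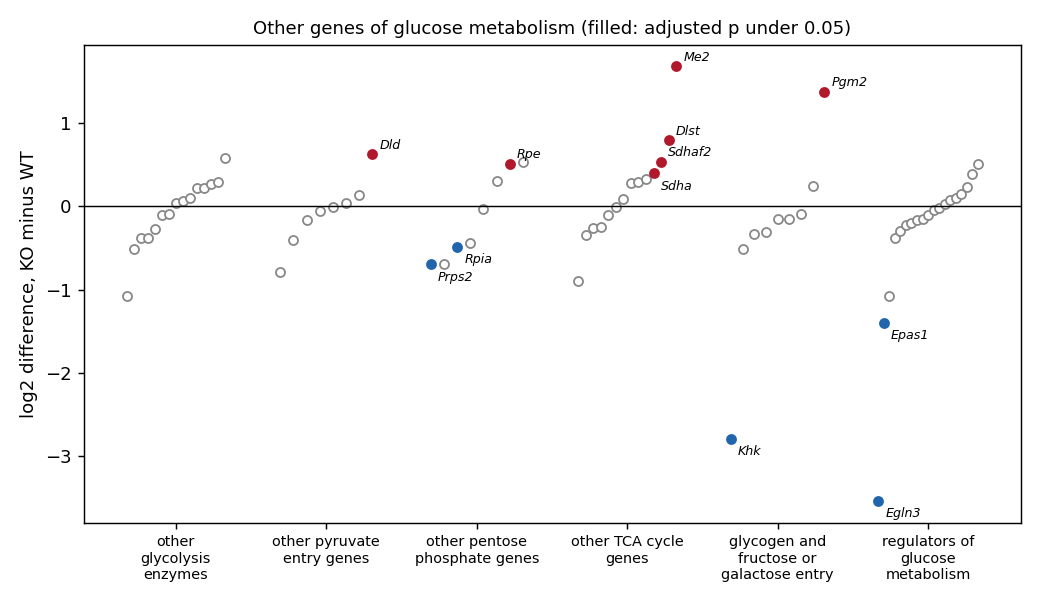
Log2 difference (Gata6-KO minus Gata6-WT) of the 73 tested neighbouring genes in 6 lists, ordered by value within each list; each point is 1 gene at its brightest probe set and filled, named points passed an adjusted p under 0.05. Egln3 and Khk lie lowest, at -3.54 and -2.79, and Me2 and Pgm2 highest, at 1.68 and 1.37.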

How the data were processed

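RNA of 3 Gata6-KO and 3 Gata6-WT macrophage pools was measured on 1 Affymetrix mouse array each. The deposited values are linear intensities per probe set, made by the authors with MAS5 and the affy package, per the submitters' processing notes; the mean after trimming 2% at each end is 500 on every array, so they are scaled already. No counts exist, and the number of arrays limits the precision.

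Values were tested as log2(signal + 16) with limma 3.58.1 in R 4.3.3 (lmFit, eBayes with trend, Benjamini-Hochberg over 27022 probe sets), after leaving out 64 control probe sets and those at or under the 40th percentile of mean log2 level (5.99). The procedure was tested on simulated data with 50 probe sets at each size of difference. It recovered 6% of differences of log2 0.5 and 30% of those of log2 1. At log2 2 and log2 3 it recovered 82% and 84%. Only these probe sets were given a difference, among 27022 of all signal levels, while 2916 were called in the data. The cut-off in raw p is stricter when fewer probe sets differ. The recovered shares are therefore not the power for the listed genes, which were brighter than most. A gene that was not called may still differ. Of 45101 probe sets 34958 had 1 gene symbol, 932 several and 9211 none; only the first were named, from the platform annotation, which can be old. Every listed gene was named at its probe set with the highest mean, and neighbouring genes by up to 4 of the largest called changes per list (up to 2 of the smallest p where none was called). Members and lists were chosen with earlier results of these data known. The labels do not say what a replicate number marks. The p-values set the genotype difference against the spread between these pools, moderated over all tested probe sets. In the main fit that spread includes any difference between the male-type replicates 1 and the other arrays. Alternatives varied the pseudocount, filter, scaling, variance model, replicate terms, threshold, probe set rule and arrays used. Protein sequences were not used here.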

Additional observations from a re-analysis of the deposited data

How the results depend on the processing

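In 18 alternative fits Ldhb and Pfkfb3 were called every time, Aco1 in 17, Slc2a1 in 14, Taldo1 in 13, Hk2 in 12, Aldoc in 11 of 17 and Idh1 in 7; none of the 8 changed sign. Without the variance trend 1 listed gene was higher and 2 lower, of their probe sets 2 and 7, and of the neighbouring genes 3 and 3. With replicates 2 and 3 only, 3 listed genes were lower, 2 of their probe sets higher and 7 lower, and 3 neighbouring genes higher. At an adjusted p under 0.01, 1 listed gene was lower, 2 probe sets higher and 6 lower, and 3 neighbouring genes higher. Asking for at least 2-fold as well left 1 listed gene higher and 3 lower, 2 and 7 probe sets, and 2 and 3 neighbouring genes. Neighbouring genes called lower were 8 with the filter at the 60th percentile, and those called higher 4 with probe sets averaged per gene. Leaving out 1 array gave 2 to 3 listed genes higher and 2 to 4 lower, 2 to 6 probe sets higher and 7 to 11 lower, and 3 to 5 neighbouring genes higher and 4 to 5 lower. The causes of these shifts were not tested; fits with fewer arrays have fewer samples. The deviations of same-numbered arrays correlated at 0.128, 0.0743 and 0.0741, and every array correlated best with its own number, a hint from the data and not the design, so the numbers were not taken to pair the arrays. With the replicate block 8 neighbouring genes were lower, while of the listed genes 3 were higher and 6 lower; the block called Pdk4 (adjusted p = 0.019) and Tkt (0.048) and ended the Idh1 call (0.054), and it moved the calls over all probe sets from 2916 to 3076. MAS5 signals near the filter, as for Aldoc, limit what can be said of dim genes.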
